A study of Sus scrofa with 6 samples.

Results

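The end zones of pig chromosome 1 are the outer stretches of that chromosome at either side, and methylation-enriched regions there were described in the back muscle of 2 pig breeds. A region belonged to the start zone where the midpoint of a peak lay at or below position 20000000, and to the end zone where it lay above position 295200000. The end zone ran to the last peak, which ended at 315248405, so the zones span 20 Mb and 20.05 Mb. After peaks of all 6 libraries that shared at least 1 bp were merged, the zones held 6227 regions, 3376 in the start zone and 2851 in the end zone, of 135121 in the lists as a whole. The rest of chromosome 1, called the interior here, held 25825 regions over 275.2 Mb and served as the reference. A total of 88582 regions lay on the 5 chromosomes that all 6 lists cover completely, which are 1, 10, 11, 12 and 13.

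The samples were longissimus dorsi muscle, the long muscle of the back, from purebred female Yorkshire pigs, a lean Western breed, and purebred female Wannanhua pigs, a Chinese local breed, with 3 libraries per breed. No other treatment, and no age, is given in the labels. Separate animals are not stated, only numbered samples. Every p-value therefore covers the spread among these samples alone, which could be technical. The whole muscle was used, so the values average over muscle fibres and every other cell type in it.

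In vertebrates, DNA methylation is the addition of a methyl group to cytosine, mostly where a cytosine is followed by a guanine (a CpG site). MeDIP-seq (methylated DNA immunoprecipitation with sequencing) pulls down fragments with an antibody against methylated cytosine, so its signal rises with the number of methylated CpG sites in a fragment as well as with the fraction of them that is methylated. Chromosome ends of mammals are commonly rich in CpG sites, in genes and in repeats, and a peak there can reflect any of these.

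The libraries held 6728444 to 17108367 tags after duplicates were removed. Wannanhua 1 had the fewest tags before that step and was the shallowest of its breed, and Yorkshire 3 had the fewest after it, with a redundant rate of 0.69 against 0.29 to 0.58 elsewhere. By the peak caller's estimate, fragments were 150, 169 and 97 bp long in the Yorkshire libraries and 179, 193 and 202 bp long in the Wannanhua libraries, in the order of their numbers. The breeds do not overlap in this estimate, so breed and fragment length cannot be told apart in what follows. No control library was used in calling peaks, so copy number and mappability, both liable to vary near chromosome ends, are not corrected for. Absence of a peak means only that the cutoff was not met at the depth of that library, and tags may still be present.

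Peaks were denser, wider and richer in tags in both end zones than in the interior, in each of the 6 libraries. In the start zone Yorkshire 1, 2 and 3 had 91.25, 108.1 and 85.5 peaks per Mb and Wannanhua 1, 2 and 3 had 67.25, 105.9 and 98.15. The end zone had 76.9, 89.4 and 76.2 in Yorkshire and 55.3, 86.7 and 79.8 in Wannanhua, and in the interior they were 62.0, 68.4 and 51.9, and 34.3, 62.2 and 58.7. The libraries kept the order start zone, end zone, interior throughout, while Wannanhua 1 was the lowest in all 3 stretches. The density ratio to the interior, as a geometric mean over libraries, was 1.67 (range 1.47 to 1.96) for the start zone and 1.39 (1.24 to 1.61) for the end zone.

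Called peaks covered 5.47%, 8.53% and 3.05% of the start zone in Yorkshire 1, 2 and 3 and 5.06%, 10.3% and 9.68% in Wannanhua 1, 2 and 3. They covered, of the end zone, 4.51%, 7.22% and 2.69%, and 4.40%, 8.39% and 7.81%. The interior was covered at 1.62% to 3.69%, less than either zone in the same library. The median peak of the start zone was 504, 622.5 and 326 bp wide for Yorkshire and 588, 726.5 and 769 bp wide for Wannanhua, and interior medians ran from 299 to 573 bp. Relative to the interior, coverage was 2.41-fold and width 1.25-fold in the start zone, and coverage 2.03-fold and width 1.28-fold in the end zone.

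The tags in peaks, scaled to the filtered tags of the library (CPM), came to 225, 288 and 215 CPM per Mb of start zone in Yorkshire 1, 2 and 3 and 264, 346 and 322 in Wannanhua. The end zone held 183, 248 and 188, and 235, 282 and 257, against 68.2 to 115 in the interior. The geometric mean ratio to the interior was 2.79 for the start zone and 2.35 for the end zone. All of these ratios for density, coverage, tags per Mb and width lay above 1 in 6 of 6 libraries, with an exact sign-flip permutation p of 0.031, the smallest that 6 libraries can give (two-sided, adjusted p = 0.0375 over 12 comparisons). Density rests in part on weak peaks: with peaks of a score of at least 100 its ratio was 1.25 in the start zone (adjusted exact p = 0.102) and 1.06 in the end zone (adjusted exact p = 0.4375).

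The fold enrichment of single peaks went the other way. It is the authors' value for the tags of a peak over its local background within the same library. The median peak of the start zone had a fold of 11.11, 9.375 and 15.91 in Yorkshire 1, 2 and 3 and 10.74, 8.68 and 9.0 in Wannanhua, where the interior had 16.33, 13.08 and 25.77, and 16.76, 12.19 and 12.54. The ratio to the interior was 0.680 in the start zone and 0.663 in the end zone, below 1 in 6 of 6 libraries (exact p = 0.031, adjusted p = 0.0375). Peaks of the end zones were thus wider and held more tags but stood less far above their surroundings.

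Tags per kb of called peak, which divides tags by called length, differed less. The measure is not free of length. In the start zone Yorkshire 3, with the narrowest median peak, had the highest value, and Wannanhua 3, with the widest, the lowest. The start zone had 4.11, 3.38 and 7.05 CPM per kb in Yorkshire 1, 2 and 3 and 5.22, 3.34 and 3.33 in Wannanhua, and the interior had 3.92, 2.98 and 7.08, and 4.08, 2.67 and 2.63. The ratio was above 1 in 5 of 6 libraries and just below 1 in Yorkshire 3, with a geometric mean of 1.16 in either zone (exact p = 0.0625, adjusted p = 0.0625). In the outer 10 Mb of each zone the ratio was 1.23 for either zone and lay above 1 in every library (adjusted exact p = 0.031).

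The start zone exceeded the end zone in peak density by 1.20-fold, in coverage by 1.19-fold and in tags per Mb by 1.19-fold, each in 6 of 6 libraries (exact p = 0.031, adjusted p = 0.0469 over 6 comparisons). Tags per kb of called peak differed by less than the spread between libraries, with a ratio of 0.997 (range 0.974 to 1.01, exact p = 0.719). In the outer 10 Mb of each zone the 3 ratios were 1.46, 1.51 and 1.51, but there, as with top-scoring peaks alone, their adjusted exact p was 0.0625.

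**Figure D1:**
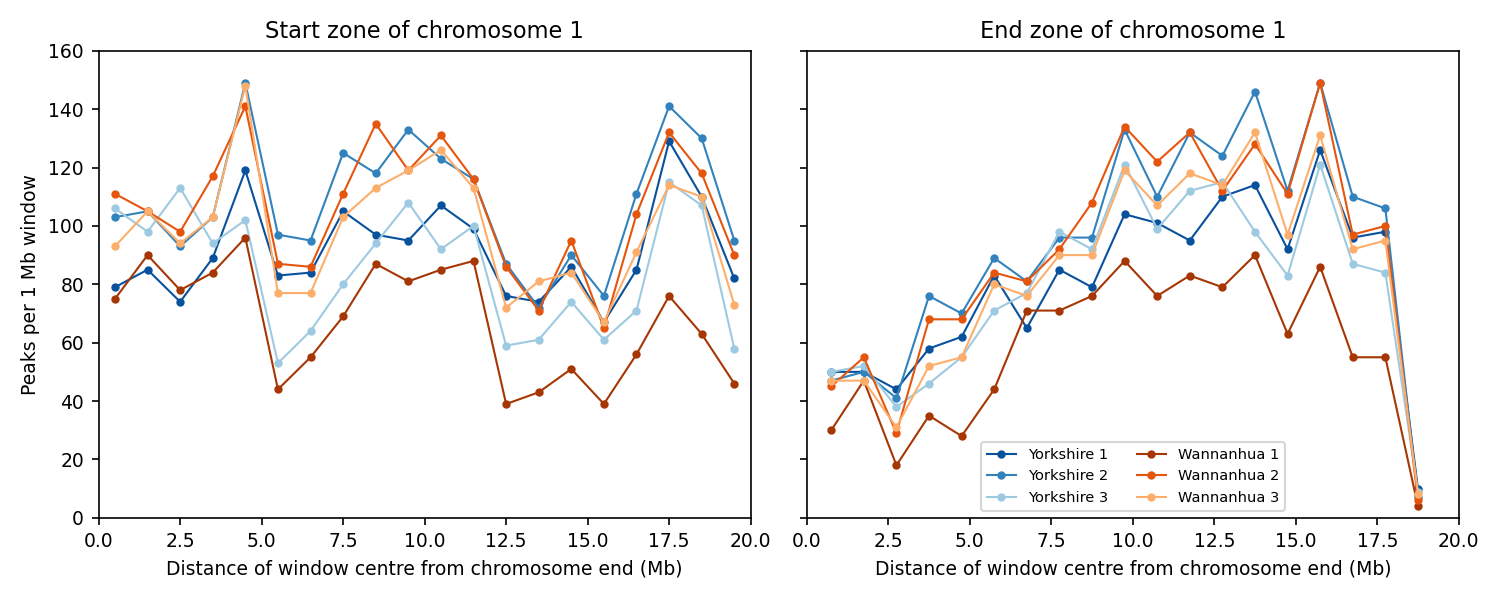
Peaks in each whole 1 Mb window (vertical axis, count) against the distance of the window's centre from the nearer chromosome end (horizontal axis, Mb) in the start zone (left) and the end zone (right), 1 line per library. Most lines have highs near 4.5 and 17.5 Mb in the start zone, and all show a fall to 4 to 10 peaks in 1 window at the inner edge of the end zone.

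Peak density varied along both zones. The window of the start zone that was densest in the mean of the 6 libraries, from 4 to 5 Mb, held 119, 149 and 102 peaks in Yorkshire 1, 2 and 3 and 96, 141 and 148 in Wannanhua 1, 2 and 3, and the second, from 17 to 18 Mb, held 76 to 141. The sparsest were 15 to 16 Mb, with 39 to 76 peaks, and 13 to 14 Mb, with 43 to 81. In each of these windows Wannanhua 1, the shallowest of its breed, was the lowest library. The order of windows was not the same in every library: in Yorkshire 3 the window from 2 to 3 Mb held 113 peaks, more than the 102 from 4 to 5 Mb, and in Wannanhua 1 the window from 1 to 2 Mb held 90, more than the 76 from 17 to 18 Mb.

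Within the end zone the window from 299 to 300 Mb was the densest, with 126, 149 and 121 peaks in Yorkshire and 86, 149 and 131 in Wannanhua, followed by 301 to 302 Mb with 90 to 146. The window from 296 to 297 Mb had 10, 7 and 9 peaks in Yorkshire and 4, 6 and 8 in Wannanhua, and the outermost window, which is cut by the last peak, had 2 to 5. From 297 to 308 Mb every window held 55 to 149 peaks, while those from 310 to 315 Mb were thinner, with 18 to 76.

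The zone limits were set by position, not by where density changes. The last 1 Mb inside the start zone held 74 peaks on average over libraries and the next 1 Mb outside it 55.5. At the end zone the first 1 Mb inside held 14.7 and the 1 Mb outside 65.7, so the sparse stretch begins at that limit.

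Peaks next to the chromosome start were broad for their zone, and those next to the other end were not. Within 2.5 Mb of the chromosome start the Yorkshire medians of peak width were 778.5, 955 and 410 bp, and the Wannanhua medians 947.5, 1250 and 1225 bp. The median fold there was 7.415, 6.36 and 10.04, and 7.555, 6.13 and 6.34. From 17.5 to 20 Mb widths were 295.5 to 654.5 bp and folds 10.24 to 19.86, but the change between was not steady. From 5 to 7.5 Mb widths were already 305 to 638 bp and folds 11.01 to 23.87. From 7.5 to 10 Mb widths were 335 to 828 bp and folds 8.21 to 14.73. In the outermost 2.5 Mb of the end zone the medians were 501, 608 and 318.5 bp for Yorkshire and 714, 744.5 and 802 bp for Wannanhua, near those of the whole zone. Its broadest stretch lay 7.5 to 10 Mb from the end, where median widths were 632.5, 967 and 348 bp for Yorkshire and 847, 1096.5 and 1119.5 bp for Wannanhua. Yorkshire 3 was the exception, with its broadest peaks from 10 to 12.5 Mb at 355 bp.

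Peaks of 2500 bp or more made up 0.493%, 1.71% and 0% of start zone peaks in Yorkshire 1, 2 and 3 and 1.34%, 4.67% and 4.02% in Wannanhua 1, 2 and 3. End zone shares were 0.130%, 1.78% and 0.0654%, and 1.62%, 3.45% and 3.81%. In the interior they were 0.0212% to 0.0557%. Over all 5 complete chromosomes they were 0.0644%, 0.473% and 0.0422%, and 0.457%, 1.16% and 1.04%, above the interior in every library. Such broad peaks were thus scarce in the interior in all 6 libraries. In the zones they were fewest in the libraries with the shortest estimated fragments. Yorkshire 3 had 0 in the start zone and 1 in the end zone, with 4 in the interior, and Yorkshire 1 had 9 and 2 in the zones.

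The outermost region of the start zone, from 10 to 3438, was called in all 6 libraries with 304, 234 and 133 tags in Yorkshire 1, 2 and 3 and 108, 340 and 267 in Wannanhua, that is 28.7, 15.3 and 19.8 CPM against 14.6, 19.9 and 17.4. The breeds overlapped. At the other end the region from 315247734 to 315248405 had 20, 30 and 20 tags in Yorkshire, 26 and 22 in Wannanhua 2 and 3 and no peak in Wannanhua 1.

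All 4 of the longest called regions in the start zone lay within 2 Mb of the end, and those of the end zone within 10 Mb. From 58472 to 66098 the Yorkshire libraries had 4952, 1783 and 602 called bp and the Wannanhua libraries 1649, 7627 and 3633. From 308350832 to 308359367 they had 1472, 4069 and 382, and 4046, 8380 and 3682. Length at both places varied as much within a breed as between breeds. The region from 314214891 to 314219035 was long in every library (2692 to 4125 bp) and was the richest in tags of these, with 44.1, 49.9 and 80.7 CPM in Yorkshire and 148, 76.3 and 75.6 in Wannanhua. For Wannanhua over Yorkshire its log2 fold change was 0.94 (SE 0.46), with an edgeR quasi-likelihood adjusted p of 0.305.

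The regions of highest fold had a different shape. By mean called length they were shorter than the longest called regions, but not all were short for their zone. From 14934418 to 14935336 folds were 27.76, 33.19 and 53.46 in Yorkshire 1, 2 and 3 and 32.75, 25.95 and 34.94 in Wannanhua. Called lengths there were 578, 630 and 214 bp, and 579, 778 and 884 bp, beside start zone median peaks of 326 to 769 bp. An end zone example, from 297326138 to 297326802, had folds of 31.03, 32.19 and 56.88, and 17.61, 28.61 and 30.34. All 5 named for fold in the start zone lay between 5 and 16 Mb from the end, outside the outer stretch of broad peaks.

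Fewer regions were called in every library at the chromosome ends than inside. Of the start zone's regions 17.3% were called in all 6 libraries and 27.0% in 1 only, and of the end zone's 16.7% and 27.2%. The interior had 24.6% and 24.1%, and all 88582 regions had 21.6% and 25.5%, so the zones' share in 1 library only was near that of all regions. Among the 1059 regions of both zones called in all 6, Yorkshire libraries had median called lengths of 601, 737 and 368 bp, and Wannanhua libraries of 620, 852 and 854 bp.

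Compared as they stand, none of the 6 measures separated the breeds in either zone. The exact two-sided permutation p-values ran from 0.2 to 0.8 with 3 libraries per breed, where 0.1 is the smallest possible. Peak density in the start zone was 95.0 ± 11.7 per Mb in Yorkshire and 90.4 ± 20.4 in Wannanhua (n = 3, SD), and tags per Mb were 243 ± 39.7 and 310 ± 42.1 CPM. With the same number of top-scoring peaks from every library, 33496, the breeds no longer overlapped in 4 of the 6 measures in either zone (exact p = 0.1 for each). Wannanhua was then higher by 1.20-fold and 1.15-fold in density, 1.81-fold and 1.80-fold in coverage and 1.52-fold and 1.52-fold in tags per Mb, start zone first, and its median fold was 0.704 and 0.689 times that of Yorkshire.

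Set against the interior of the same library, the end zones weighed more in Wannanhua. Tags per Mb of start zone over tags per Mb of interior were 2.05, 2.70 and 1.87 in Yorkshire 1, 2 and 3 and 3.87, 3.51 and 3.38 in Wannanhua 1, 2 and 3. The end zone ratios were 1.67, 2.32 and 1.63, and 3.45, 2.87 and 2.70. No Yorkshire library reached the lowest Wannanhua library in either zone. The means were 2.21 ± 0.434 and 3.59 ± 0.253 in the start zone and 1.88 ± 0.388 and 3.01 ± 0.396 in the end zone (SD, n = 3; exact permutation p = 0.1, adjusted p = 0.25 over 30 comparisons). These 2 differences were 1.62-fold and 1.60-fold, and no single library left out took them below 1.51-fold and 1.48-fold.

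Coverage and tags per kb behaved alike. Coverage over that of the interior was 2.07 ± 0.267 in Yorkshire and 2.83 ± 0.179 in Wannanhua in the start zone, and 1.76 ± 0.219 and 2.35 ± 0.248 in the end zone. Tags per kb of called peak over the interior were 1.06 ± 0.0706 and 1.26 ± 0.0132 in the start zone, and 1.06 ± 0.0868 and 1.27 ± 0.0323 in the end zone (SD, n = 3). The breeds did not overlap in these 4 ratios (exact p = 0.1 for each). They overlapped in the density ratio of the end zone (exact p = 0.4), the width ratio of the start zone (exact p = 0.2) and the fold ratio of both zones (exact p = 0.6 and 0.9). The interior against which these are set was itself lower in Wannanhua in tags per Mb, at 68.2 to 98.4 CPM against 107 to 115 in Yorkshire.

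**Figure D2:**
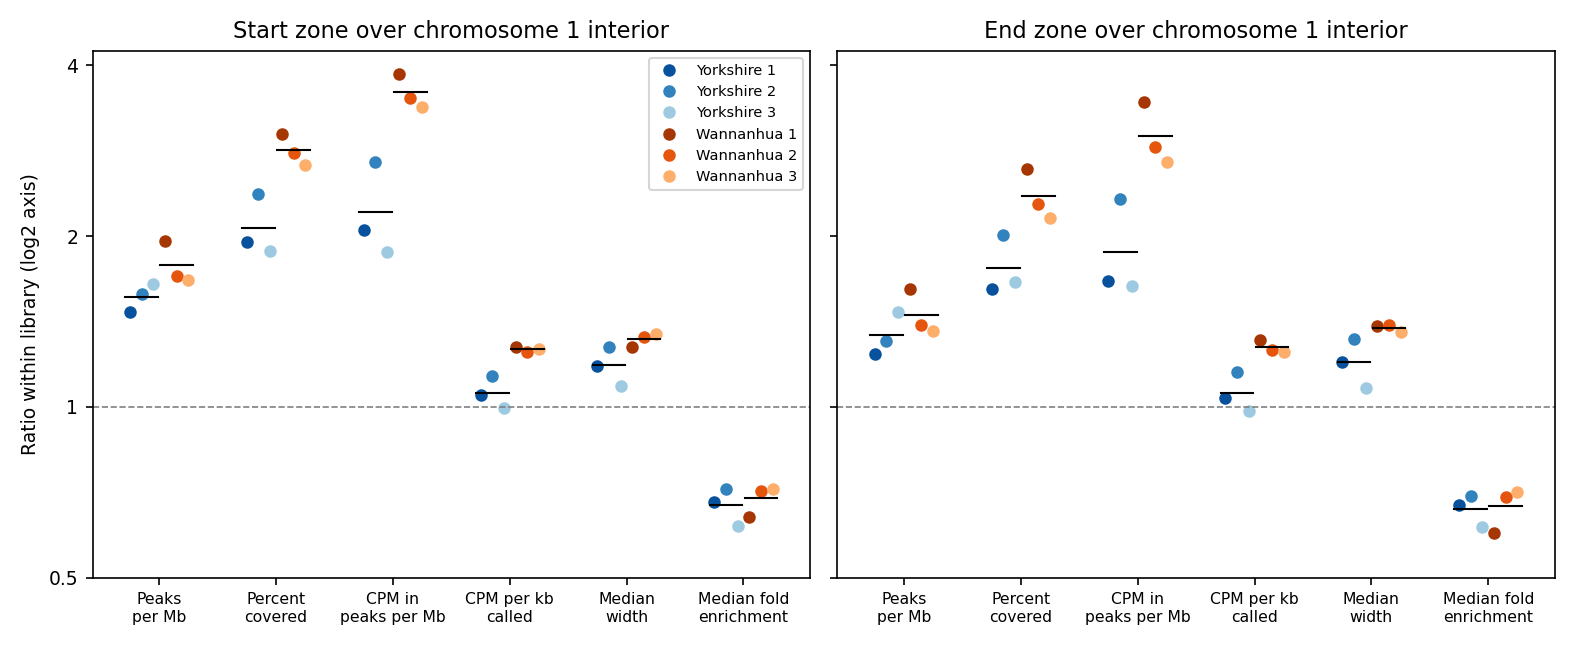
Ratio of each end zone to the chromosome 1 interior within the same library (vertical axis, log2 scale) for 6 measures, with 1 point per library and black bars at the breed means (n = 3). Points for coverage and for tags per Mb lie higher in all 3 Wannanhua libraries, and median fold enrichment lies below 1 in every library.

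Library medians over the regions called in all 6 libraries were ordered alike. Calling still plays a part there, since a region enters only where every library met the cutoff, and its tags are summed over called peaks alone. Single regions mostly overlapped: every Wannanhua library exceeded every Yorkshire library in CPM in 120 of 584 start zone regions (20.5%) and 104 of 475 end zone regions (21.9%), against 8.48% of all 19161. The median log2 CPM of start zone regions exceeded that of interior regions by 0.28, 0.43 and 0.08 in Yorkshire 1, 2 and 3 and by 0.62, 0.57 and 0.65 in Wannanhua 1, 2 and 3. For end zone regions the excess was 0.23, 0.46 and 0.08, and 0.62, 0.54 and 0.70. Per kb of called peak the excess was -0.09, 0.09 and -0.06, and 0.22, 0.15 and 0.22 in the start zone, so it was near 0 in Yorkshire and above 0 in each Wannanhua library. The excess in called length overlapped between breeds. The breed difference in the start zone's excess, 0.35, was 0.22 without Yorkshire 3.

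The excess of Wannanhua tags was not spread evenly along the zones. Tag share here is the percentage of a library's tags in called peaks on the 5 complete chromosomes that fell in a 1 Mb window. All 3 Wannanhua libraries exceeded all 3 Yorkshire libraries in this share in 10 of 20 start zone and 10 of 21 end zone windows. This was so in 9.64% of all 768 windows of the 5 chromosomes and in 2 of 276 interior windows. The reverse held in 1 start zone window and 2 end zone windows, against 46% of all windows and 166 of 276 interior windows. The shares sum to a whole, so a higher share at the ends goes with a lower one elsewhere. Without any 1 library, 10 or 11 windows per zone were higher in Wannanhua. Windows higher in Yorkshire were up to 4 in the start zone (without Yorkshire 3) and up to 7 in the end zone (without Yorkshire 2).

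In the start zone these windows ran from the end to 5 Mb, from 8 to 12 Mb, and from 14 to 15 Mb. The steepest was 2 to 3 Mb, with a ratio of means of 2.05. Its tag share was 0.251%, 0.437% and 0.331% in Yorkshire 1, 2 and 3 and 0.751%, 0.669% and 0.666% in Wannanhua 1, 2 and 3. Between the blocks, from 5 to 8 Mb, the breeds overlapped, with ratios from 0.865 to 1.16. Peak number in the window from 2 to 3 Mb did not differ beyond its spread, at 93.3 ± 19.5 and 90.0 ± 10.6 peaks (SD, n = 3).

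In the end zone the windows higher in Wannanhua were 300 to 301 Mb, 302 to 309 Mb and 313 to 315 Mb. The largest ratio was 2.08, at 308 to 309 Mb, with tag shares of 0.192%, 0.301% and 0.208% in Yorkshire and 0.601%, 0.428% and 0.432% in Wannanhua. The neighbouring stretch from 309 to 312 Mb showed ratios of 0.862 to 0.998 and overlapping breeds. From 312 to 313 Mb the order was reversed, with 0.190%, 0.134% and 0.165% in Yorkshire and 0.117%, 0.115% and 0.0843% in Wannanhua.

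**Figure D3:**
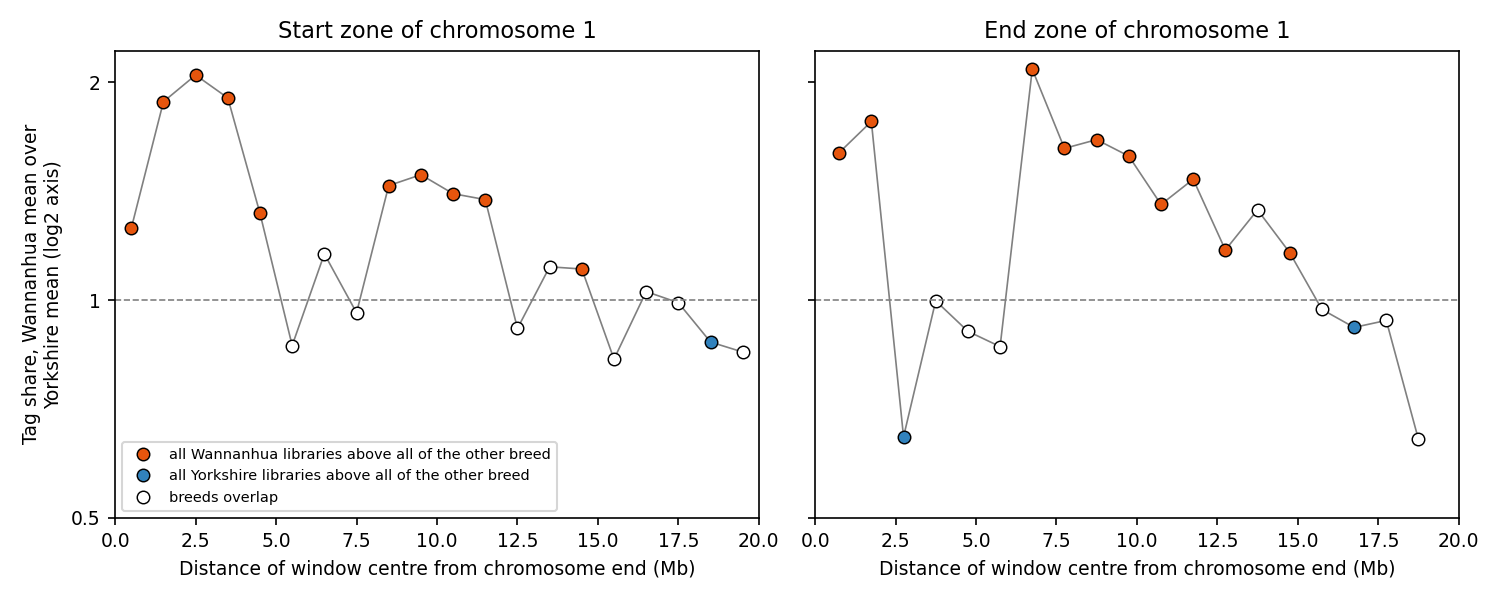
Mean share of tags in Wannanhua over that in Yorkshire (vertical axis, log2 scale) for each whole 1 Mb window, against distance from the nearer chromosome end (Mb); fill shows windows where all 3 libraries of a breed lie above all 3 of the other. Orange windows form blocks in both zones, with the highest ratios at 2.05 in the start zone and 2.08 in the end zone, and blue windows are single.

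Tags of the regions called in all 6 libraries were tested between breeds with edgeR's quasi-likelihood test on 19161 regions of the 5 chromosomes, 584 of them in the start zone and 475 in the end zone. At a Benjamini-Hochberg adjusted p below 0.05, 12 start zone and 8 end zone regions had more tags in Wannanhua, and 2 in either zone had more in Yorkshire. Of the 1059 regions in both zones, 1.89% were higher in Wannanhua and 0.378% higher in Yorkshire, against 0.543% and 0.151% of all regions tested. The interior had 14 and 8 of 6362. Median log2 fold changes (Wannanhua over Yorkshire) were 0.22 in the start zone and 0.26 in the end zone, with 64.7% and 67.2% of regions above 0, against -0.10 in the interior and -0.04 over all regions. These medians moved with the fit: they were 0.11 and 0.13 with scaling by library size alone (interior -0.23), 0.03 and 0.06 with fragment length as a covariate (interior -0.02), and turned to -0.19 and -0.21 with called length as an offset (interior -0.43).

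The 20 regions higher in Wannanhua had log2 fold changes of 1.22 to 2.42 with a median SE of 0.40, and in all 20 every Wannanhua library exceeded every Yorkshire library in CPM. They were picked on these same tags, so this separation is not independent of that choice.

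The number of calls changed with single libraries and with the terms of the fit. Both zones together had 20 regions higher in Wannanhua, but 1 without Yorkshire 1, 241 without Yorkshire 2, 11 without Yorkshire 3, 11 without Wannanhua 1, 3 without Wannanhua 2 and 4 without Wannanhua 3. The 4 higher in Yorkshire were 0 to 15 in the same fits. Over all regions tested, 104 were higher in Wannanhua, and 1, 1543, 46, 46, 6 and 12 in these fits in the same order. Without Yorkshire 2 that was 22.8% of the zones' regions and 8.05% of all regions. The 29 higher in Yorkshire over all regions were 0 to 321. All 24 regions of the zones kept their direction in each of these fits. With fragment length as a covariate 2 of the 24 passed, but all kept their direction, at a median log2 fold change of 1.45 (1.76 without it) for the 20 and -0.85 (-1.26) for the 4. With called length as an offset 15 of the 20 stayed above 0, at a median of 0.19, while the 4 higher in Yorkshire stayed below 0 at a median of -1.05. With that offset edgeR called 0 of 1059. At an unadjusted edgeR p below 0.05 there were 130 of 1059, against 2962 of all 19161 regions. DESeq2 on the tags themselves called 101 (9.54%) higher in Wannanhua and 3 (0.283%) higher in Yorkshire. Over all regions it called 488 (2.55%) and 22 (0.115%). These DESeq2 shares include regions without an adjusted p, 570 in the zones and 14859 over all.

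Called length moved with the tags. In the 20 regions higher in Wannanhua the called length was longer there by a median of 3.03-fold (range 1.91 to 5.33). In 17 of the 20 all Wannanhua libraries were longer than all Yorkshire libraries. This was so in 19.5% of start zone, 20% of end zone and 15.9% of all 19161 regions tested. The 20 were picked on tags, so their lengths are not independent of that choice. Their tags per kb of called peak had a median ratio of 0.975 (range 0.726 to 1.46), and the breeds overlapped in all 20. In all start zone regions tested that ratio had a median of 0.760, in the end zone 0.756 and in the interior 0.639. In the 4 regions higher in Yorkshire the median length ratio was 0.877 and the median ratio of tags per kb 0.438. Across the 1059 regions Pearson's r between the log2 fold change and the log2 length ratio was 0.707, given as a description, since all regions come from the same 6 libraries and length enters the tag sum.

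**Figure D4:**
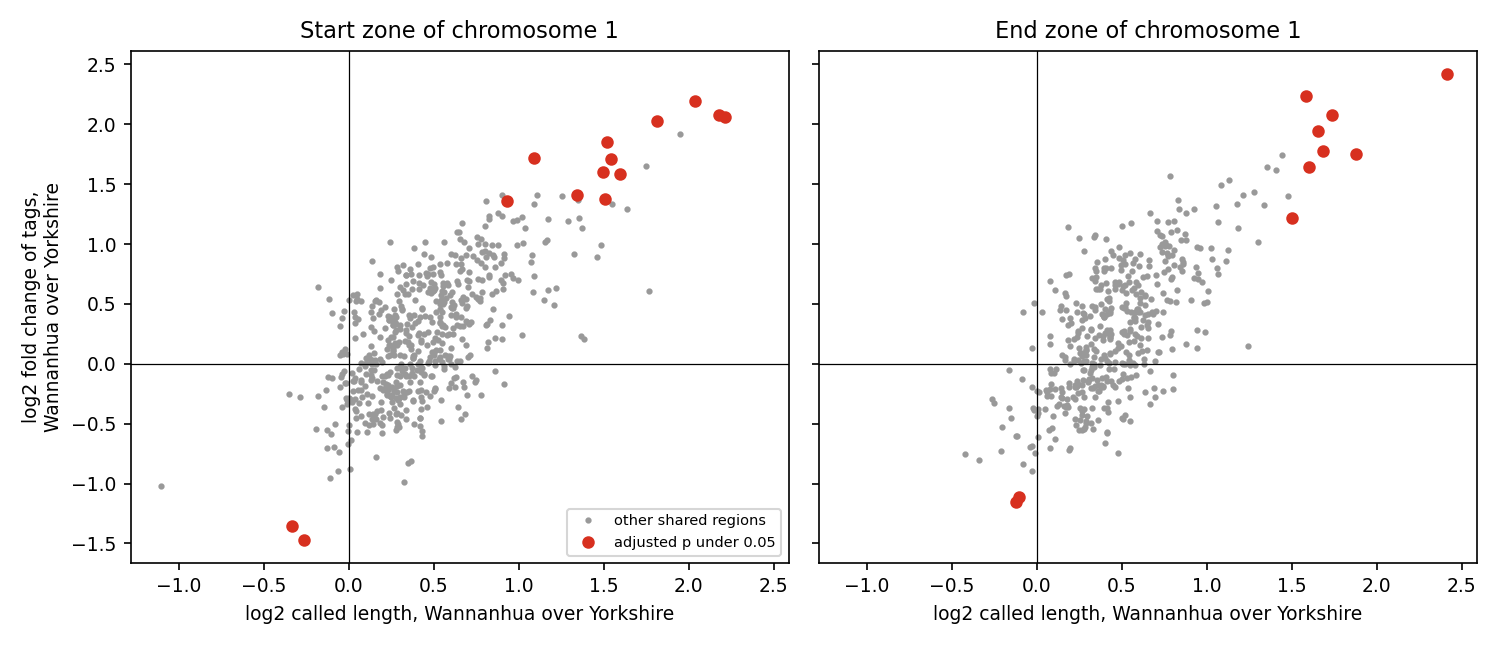
Log2 fold change of tags (vertical axis, edgeR) against the log2 ratio of mean called length (horizontal axis), both Wannanhua over Yorkshire, for the 584 start zone (left) and 475 end zone (right) regions called in all 6 libraries. Larger points passed an adjusted p of 0.05, and the 20 higher in Wannanhua all lie at a called length at least 1.91-fold longer there.

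The region from 9885346 to 9887285 of the start zone was the one that passed whichever library was left out. It held 16, 12 and 8 tags in Yorkshire 1, 2 and 3 and 28, 94 and 53 in Wannanhua 1, 2 and 3, or 1.51, 0.786 and 1.19 CPM against 3.78, 5.49 and 3.45. Every Wannanhua library was above every Yorkshire library. The log2 fold change was 2.06 (SE 0.31, edgeR adjusted p = 0.00211), and the called length was 344, 257 and 236 bp against 669, 1569 and 1649 bp. With called length as an offset the log2 fold change was -0.10.

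Most other start zone regions higher in Wannanhua lay nearer the end, while those from 11341759 and from 14271057 lay further in. From 1087761 to 1090106 there were 2.26, 3.34 and 2.97 CPM in Yorkshire and 12.5, 11.1 and 12.6 in Wannanhua, which gives a log2 fold change of 2.20 (SE 0.41, edgeR adjusted p = 0.0122). From 2242783 to 2246318 there were 1.89, 3.67 and 2.53 CPM, and 7.55, 12.0 and 12.1, a log2 fold change of 2.07 (SE 0.41, edgeR adjusted p = 0.0183). Both passed in 3 of 6 fits without a library. Of the 12 start zone regions higher in Wannanhua 7 lay within 5 Mb of the end and 10 within 10 Mb. Of the 584 start zone regions tested, the bins of 2.5 Mb from the end to 10 Mb held 67, 90, 78 and 68.

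In the end zone the region from 307539513 to 307545051 had the largest log2 fold change, 2.42 (SE 0.46, edgeR adjusted p = 0.0135). It held 1.98, 5.17 and 4.01 CPM in Yorkshire and 17.9, 23.3 and 14.0 in Wannanhua, over 369, 1171 and 583 called bp against 2337, 5539 and 3430. The regions from 308266564 to 308267732 and from 308637055 to 308639051 each passed in 5 of 6 fits without a library. The first had 1.13, 1.11 and 1.93 CPM in Yorkshire and 5.13, 3.16 and 3.51 in Wannanhua (log2 fold change 1.65, SE 0.28, edgeR adjusted p = 0.00729). The second had 1.23, 1.57 and 1.78 against 5.93, 3.10 and 5.33 (log2 fold change 1.75, SE 0.31, edgeR adjusted p = 0.00956). Both lie in the window from 308 to 309 Mb, which had the highest ratio of tag share in the end zone.

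Among the 20, the region from 310482799 to 310486718 had the highest ratio of tags per kb of called peak, 1.46. It held 3.40, 2.36 and 4.16 CPM in Yorkshire and 16.3, 12.8 and 12.3 in Wannanhua (log2 fold change 2.23, SE 0.42, edgeR adjusted p = 0.0122), and passed in 3 of 6 fits without a library. It was the 1 region of the 8 higher in Wannanhua in the end zone that lay within 5 Mb of the end. Of the 475 end zone regions tested, 36 lay within 2.5 Mb of the end and 38 from 2.5 to 5 Mb.

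The 4 regions higher in Yorkshire were short peaks of similar length in both breeds. From 10893560 to 10894210 there were 68, 63 and 59 tags in Yorkshire 1, 2 and 3 and 15, 39 and 27 in Wannanhua 1, 2 and 3, or 6.42, 4.12 and 8.77 CPM against 2.02, 2.28 and 1.76 (log2 fold change -1.47, SE 0.32, edgeR adjusted p = 0.0237). From 4936574 to 4937266 there were 6.79, 4.39 and 8.03 CPM against 2.16, 2.34 and 2.08 (log2 fold change -1.36, edgeR adjusted p = 0.0358). Yorkshire 3, with the shortest fragments, was the highest library at both. The other two, from 312181389 to 312181985 and from 312461701 to 312462216, both lie in the end zone window that was lower in Wannanhua, with log2 fold changes of -1.11 and -1.16. The first held 2.92, 2.16 and 4.46 CPM in Yorkshire and 2.02, 1.05 and 1.04 in Wannanhua (SE 0.28, edgeR adjusted p = 0.0489), and the second 3.02, 2.03 and 3.86 against 1.48, 0.935 and 1.17 (SE 0.27, edgeR adjusted p = 0.0319). The breeds did not overlap at either, though Wannanhua 1 came close to Yorkshire 2 at the first.

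**Figure D5:**
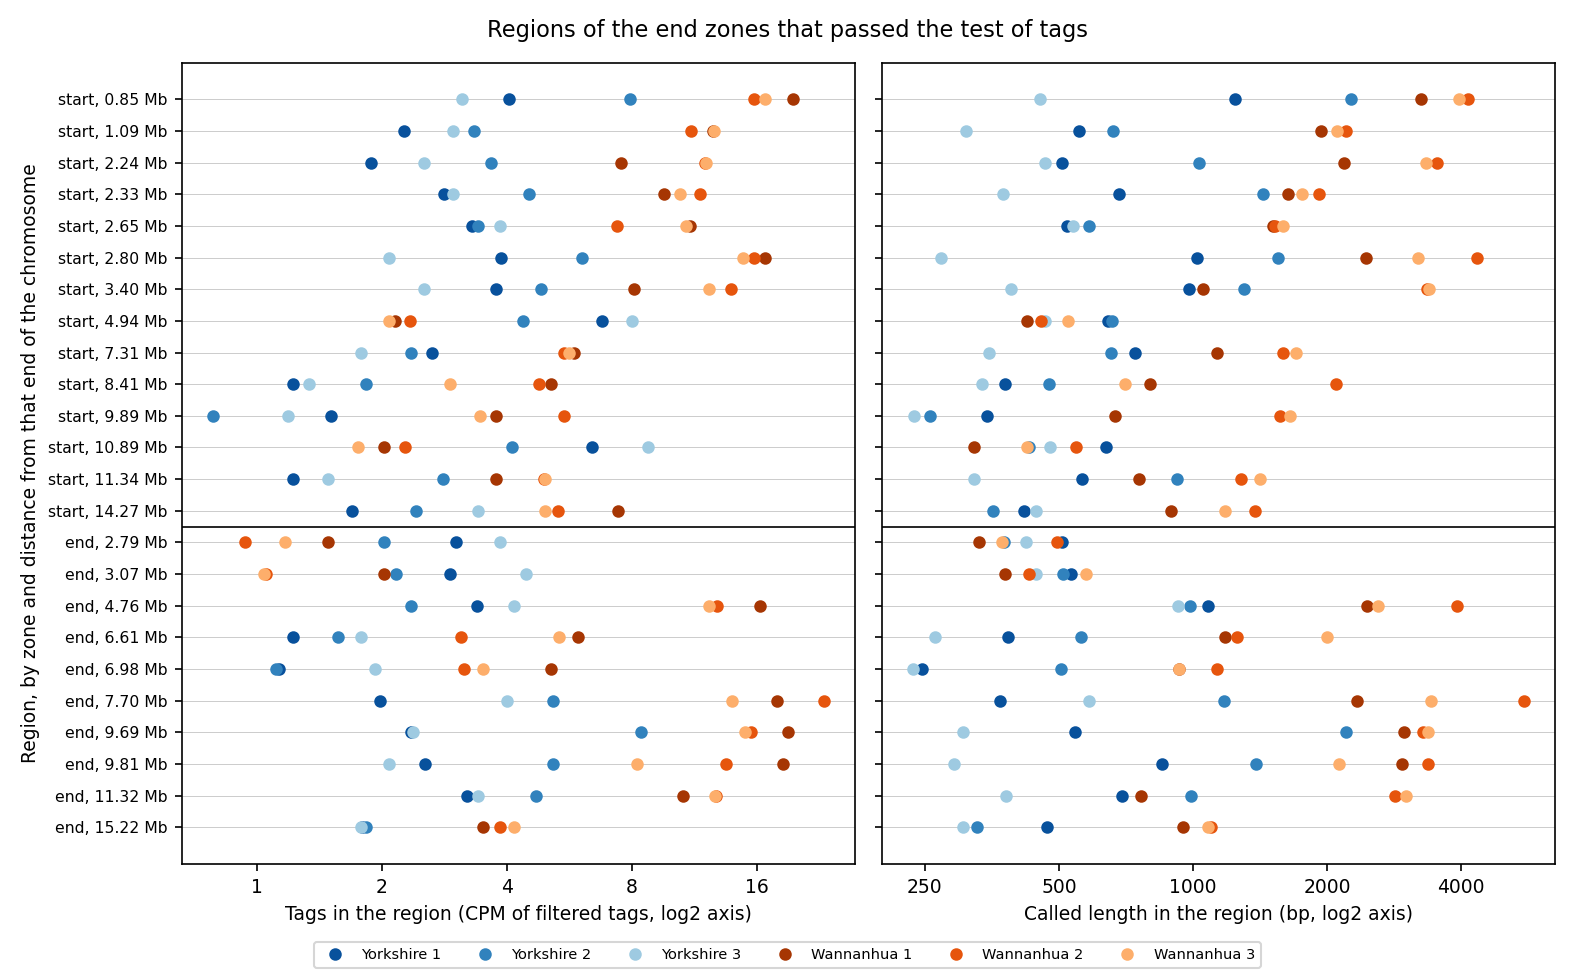
Tags (left, CPM) and called length (right, bp), both on log2 axes, for the 24 regions of the end zones that passed the test of tags, 1 row per region by distance from its end of the chromosome and 1 point per library. In 20 rows the Wannanhua points lie to the right in tags, and in 17 of these also wholly to the right in length.

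By position along the zones, the fold change followed the same blocks as the tag share. In bins of 2.5 Mb from the chromosome start the median log2 fold change was 0.64, 0.48, -0.04, 0.53, 0.22, 0.06, -0.01 and -0.01, over 43 to 95 regions each. From the other end inward it was 0.23, -0.18, 0.33, 0.76, 0.42, 0.38, 0.01 and -0.20, over 34 to 94 regions. The highest median of the start zone was in its outermost bin, followed by the bin from 7.5 to 10 Mb, and that of the end zone lay 7.5 to 10 Mb from the end.

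A smaller set of regions was called in all 3 libraries of a breed and in none of the other. Wannanhua-only regions numbered 52 (1.54%) in the start zone and 45 (1.58%) in the end zone, against 0.798% of all 88582 regions and 0.414% in the interior. Yorkshire-only regions numbered 56 (1.66%) and 60 (2.10%), against 1.47% of all regions and 1.35% in the interior. With the same number of top-scoring peaks from every library the Wannanhua-only counts were 79 (3.43%) and 71 (3.65%), against 1.01% in the interior. The Yorkshire-only counts were then 20 (0.868%) and 36 (1.85%), against 1.67% in the interior, so the start zone's share then lay below the interior's. At a score of at least 100 Yorkshire-only regions were 24 of 1595 and 27 of 1340 (2.01%), both a smaller share than the interior's 2.33%. Wannanhua-only regions were 24 of 1595 and 24 of 1340 (1.79%), against 0.488% in the interior. Leaving out a library, which asks for fewer peaks, gave 67 to 148 and 62 to 114 for Wannanhua and 64 to 148 and 73 to 127 for Yorkshire.

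A good part of these regions had a peak of the other breed close by. In the start zone one lay no more than 1000 bp from 13 of the 52 Wannanhua-only regions and from 17 of the 56 Yorkshire-only regions, and in the end zone from 16 of 45 and 12 of 60. Their median tags were low, at 20, 25 and 11 in Yorkshire 1, 2 and 3 and 20.5, 45.5 and 41.5 in Wannanhua 1, 2 and 3 in the start zone.

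A few held many tags, though which regions meet the single-breed rule changed with the setting. Of the 8 named per breed, 6 in either breed still met it among top-scoring peaks, 1 Yorkshire-only and 2 Wannanhua-only did at a score of at least 100, and 5 and 7 did when peaks had to overlap reciprocally by 50%. The Wannanhua-only region from 8512321 to 8516723 had 127, 336 and 278 tags (17.1, 19.6 and 18.1 CPM) in Wannanhua 1, 2 and 3 over 2355, 4165 and 4403 called bp, and the nearest Yorkshire peak lay 1042 bp away. It met the rule in the lists as deposited but under none of these 3 settings. The Yorkshire-only region from 307338415 to 307341808 had 173, 354 and 134 tags (16.3, 23.2 and 19.9 CPM) in Yorkshire 1, 2 and 3, and the nearest Wannanhua peak lay 3645 bp away. It met the rule under the first and second settings but not with reciprocal overlap. Each was even across the 3 libraries of its breed once scaled to depth.

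Single-breed regions of opposite kind could also be neighbours. The Wannanhua-only region from 8227819 to 8228694, with 19, 62 and 70 tags, lies 1357 bp from the Yorkshire-only region from 8230051 to 8231047, with 35, 54 and 18 tags. Another Wannanhua-only region, from 8543476 to 8544265, held 19, 76 and 47 tags about 0.3 Mb further in. Among end zone regions the highest-scoring Wannanhua-only region, from 299566778 to 299567251, held 12, 30 and 36 tags, and a Yorkshire peak lay 499 bp away.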

How the data were processed

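The authors deposited 1 peak list per library, so calling was done library by library, without pooling. Per the file headers the caller was MACS, named as version 1.4.2 in 5 of 6 headers, run without a control, at a p cutoff of 1e-05 and with at most 1 tag kept per position. Neither an aligner nor a genome build is named (not given in the sources used here), and the build of the available gene table differs, so coordinates are those of the lists and no gene or sequence is given. The deposited lists give a whole-number count of tags per peak, not normalized, and the authors' fold enrichment, the ratio of tags to local background, and a score. Fold and score were used to describe, rank and filter peaks, and medians of fold were also set side by side between stretches and libraries. Every list stops at line 65536, so the background covers the 5 chromosomes complete in all lists.

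Peaks sharing 1 bp were merged, and tags were scaled to filtered tags as CPM. Tags over called peaks move with called length, so called length and tags per kb are given beside them. Zones were compared with the interior within each library by exact sign-flip tests, and breeds by exact permutation tests (two-sided), adjusted by Benjamini-Hochberg. Tags were tested with edgeR 4.0.16 (TMM scaling, filterByExpr, which removed 0 of 19161 regions). DESeq2 1.42.0 was an alternative. The code was tested on simulated data. The members, lists and tests were chosen with earlier results of these data known, and the count of windows and its alternatives were added after seeing the data. Regions are named by rule: those passing the test (up to 8 per direction and end by size of change), the 4 single-breed regions per breed and end by score, the 5 of highest fold and 4 longest per end, and the 2 densest and 2 sparsest windows per end. The outermost regions were chosen after their values were seen.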

Additional observations from a re-analysis of the deposited data

How the results depend on the processing

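With the 33496 top-scoring peaks from every library, the Wannanhua to Yorkshire ratio of peak density turned from 0.952 to 1.20 (start zone) and from 0.914 to 1.15 (end zone), and that of fold relative to the interior from 1.03 to 0.990 and from 1.01 to 0.966. The ratio of tags per kb to the interior passed the threshold (1.15 and 1.16), while the end zone's density over the interior (1.20) and the start over end zone ratios of density (1.18), coverage (1.20), tags per Mb (1.19) and fold (1.02) did not. Yorkshire-only regions were 20 and 36, Wannanhua-only 79 and 71, and windows higher in Yorkshire 2 and 1. With scores of at least 100, the start zone's density ratio between breeds was 1.02 and the fold ratios 0.942 and 0.888. Density over the interior no longer passed (1.25 and 1.06), tags per kb did (1.14 and 1.16), and the start over end zone ratios of density, coverage, tags per Mb and fold (1.18, 1.18, 1.17 and 1.04) did not. Yorkshire-only regions were 24 and 27, Wannanhua-only 24 and 24, and windows higher in Yorkshire 0 and 0. In the outer 10 Mb the end zone's fold ratio between breeds was 0.963, tags per kb over the interior passed (1.23 and 1.23), and the start over end zone ratios were 1.46, 1.51 and 1.51 for density, coverage and tags per Mb, 1.03 for width (0.970 over the whole zones) and 0.955 for fold, none passing. Yorkshire-only regions there were 24 and 28 and Wannanhua-only 27 and 22. Reciprocal overlap of 50% gave 73 Wannanhua-only regions in the end zone.

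For tags (edgeR), called length as an offset gave 0 regions in either direction in both zones and turned the median log2 fold changes to -0.19 and -0.21. It also turned 5 of the 20 regions higher in Wannanhua: those from 2242783 (-0.083), 9885346 (-0.10), 14271057 (-0.12), 308637055 (-0.075) and 300031177 (-0.31). Fragment length as a covariate left 0 and 2 higher in Wannanhua and 0 and 0 in Yorkshire. Over all regions tested it left 2 and 4. Scaling by library size alone gave 6 higher in Yorkshire in the start zone and 16 higher in Wannanhua in the end zone, and size factors gave 1 higher in Yorkshire in the end zone. Over all regions tested, library size alone gave 160 (0.835%) higher in Wannanhua and 96 (0.501%) in Yorkshire, and size factors 118 (0.616%) and 27 (0.141%). DESeq2, which gave no adjusted p for 570 of the 1059 regions, called 50 and 51 higher in Wannanhua and 0 in Yorkshire in the end zone. The causes were not tested.

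A replicate block gave 21 and 19 regions higher in Wannanhua (3.78% of those in both zones), and kept all 24 calls. Calls rose over all 19161 regions too, from 104 to 225 (1.17%) higher in Wannanhua and from 29 to 48 (0.251%) higher in Yorkshire. The labels do not say whether the numbers pair the samples. In their deviations from the breed mean, same-numbered libraries correlated at -0.009, 0.032 and -0.050, and differently numbered ones at -0.079 to 0.084. Each breed comparison of library values as 3 pairs cannot go below an exact sign-flip p of 0.25.

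Without 1 library in turn, 5 libraries cannot give an exact p below 0.0625, so no within-library ratio passed. Over the interior, start zone ratios were 1.61 to 1.71 (density), 2.31 to 2.54 (coverage), 2.62 to 3.03 (tags per Mb), 1.23 to 1.28 (width) and 0.672 to 0.693 (fold), and end zone ratios 1.35 to 1.42, 1.92 to 2.12, 2.18 to 2.53, 1.26 to 1.33 and 0.655 to 0.677. Start over end zone they were 1.19 to 1.21 (density), 1.18 to 1.20 (coverage), 1.17 to 1.20 (tags per Mb), 1.02 to 1.03 (fold) and 0.994 to 1.00 (tags per kb). Between breeds, density was 0.871 to 1.07 and 0.835 to 1.03, tags per kb 0.688 to 1.06 and 0.690 to 1.07, and fold relative to the interior 0.988 to 1.06 and 0.976 to 1.06, start zone first. The start zone's excess of shared regions differed by 0.22 to 0.40. Yorkshire-only regions were 64 to 148 and 73 to 127, Wannanhua-only 67 to 148 and 62 to 114, and windows higher in Yorkshire 1 to 4 and 2 to 7. By edgeR, 1 to 115 and 0 to 126 regions were higher in Wannanhua and 0 to 9 and 0 to 6 in Yorkshire. Over all regions tested the counts were 1 to 1543 and 0 to 321. No listed peak had fewer than 7 to 13 tags, by library, which limits what a missing peak shows.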
